A study of Mus musculus with 12 samples.

Results

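Ifng, the gene of the cytokine interferon gamma, was followed across the 12 single-colour arrays of a study of murine CD8+ T cells. It was taken as every row of the deposited values to which the platform annotation gives the symbol Ifng alone, and that rule found 1 row (probe set 17237589, Entrez gene 15978), which is 1 of the 22180 genes analysed. The gene had been picked because IFN-4a moved it little in resting cells and more in stimulated cells, so its IFN-4a changes are given below as descriptions, with no test. The cells came from spleens of C57BL/6 mice, were enriched for CD8+ lymphocytes by removing other cells, and were cultured for 6 h; the labels used here state no age, sex or number of animals. The 4 groups of 3 arrays were anti-CD3 with IFN-4a, anti-CD3 alone, PBS with IFN-4a, and PBS alone as the mock treatment. Anti-CD3 is an antibody to the CD3 chains of the T cell receptor complex, and cells that received it are called stimulated, those that received PBS resting. IFN-4a is the labels' name for the interferon used, which the title calls type I. The labels number the replicates and name no animal, day or batch, so the spread that p-values rest on here may be no more than technical.

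Interferon gamma is the signature cytokine of CD8+ effector T cells and of NK cells. Signals from the T cell receptor induce its gene through factors of the NFAT, AP-1 and NF-kappaB families, and the T-box factors T-bet (Tbx21) and Eomesodermin (Eomes) make the locus permissive and drive its transcription. The secreted protein acts on a receptor made of Ifngr1 and Ifngr2 chains, through the kinases Jak1 and Jak2, on genes of antigen presentation and of defence inside cells. Type I interferons act through another receptor on many of the same genes.

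Values are on a log scale taken as log2; its base is not stated in what was used here, and under a natural log every fold would be larger. The authors centred each row on its median over the 12 arrays, so 0 is a gene's own median, levels of different genes cannot be compared, and a value of 0 is no absence. In bulk RNA, fewer cells that make a transcript and less transcript per cell cannot be told apart. Array medians lay between -0.0157 and 0.0165, and the lowest correlation between arrays of 1 group (0.608, across all rows) exceeded the highest between arrays of different groups (0.527). The number of arrays limits the precision. Changes are given with the standard error (SE) of limma's fit over all 12 arrays, and a gene is called changed where limma's Benjamini-Hochberg adjusted p over the 22180 genes is under 0.05.

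Ifng lies on chromosome 10 at chr10:118441046-118445894 of GRCm38.p6, on the plus strand, over 4849 bases. The 250 bases upstream of the start are shown for Ifng and for 3 genes that share its interferon profile (below), the cytokine genes Il3 and Lif and the antiviral gene Oas1g, because anti-CD3 and IFN-4a signals act on transcription through such stretches. Sequences are RefSeq's, 5′ to 3′ on the strand of the gene, from chr10:118440796-118441045 (plus strand) for Ifng, chr11:54267280-54267529 (minus strand) for Il3, chr11:4257318-4257567 (plus strand) for Lif and chr5:120887614-120887863 (minus strand) for Oas1g. Capitals mark matches on either strand to any of 8 short motifs.
Ifng: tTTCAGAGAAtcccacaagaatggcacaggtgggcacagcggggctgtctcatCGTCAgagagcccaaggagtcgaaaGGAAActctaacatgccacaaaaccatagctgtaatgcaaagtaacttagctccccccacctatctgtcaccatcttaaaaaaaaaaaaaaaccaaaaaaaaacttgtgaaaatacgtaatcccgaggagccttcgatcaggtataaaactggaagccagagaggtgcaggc
Il3: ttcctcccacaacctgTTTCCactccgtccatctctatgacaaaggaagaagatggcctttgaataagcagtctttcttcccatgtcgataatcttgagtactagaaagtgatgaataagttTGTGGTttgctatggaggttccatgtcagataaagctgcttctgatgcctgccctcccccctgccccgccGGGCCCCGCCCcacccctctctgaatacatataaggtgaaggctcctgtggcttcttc
Lif: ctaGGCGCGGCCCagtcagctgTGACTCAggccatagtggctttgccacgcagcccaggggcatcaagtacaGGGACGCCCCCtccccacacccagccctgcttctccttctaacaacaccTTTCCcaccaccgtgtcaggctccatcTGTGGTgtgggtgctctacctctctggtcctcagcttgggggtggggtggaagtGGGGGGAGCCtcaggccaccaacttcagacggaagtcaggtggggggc
Oas1g: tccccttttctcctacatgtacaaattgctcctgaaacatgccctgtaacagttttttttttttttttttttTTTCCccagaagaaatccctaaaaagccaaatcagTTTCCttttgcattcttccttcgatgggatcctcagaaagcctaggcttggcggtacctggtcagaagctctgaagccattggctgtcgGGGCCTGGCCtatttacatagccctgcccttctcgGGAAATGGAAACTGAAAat

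The letters searched were TGANTCA for AP-1, GGAAA for the NFAT core, GAAA, 2 free bases and GAAA again for the interferon-stimulated response element (ISRE), TTCNNNGAA for the gamma-activated site (GAS), GTGTGA for a T-box half-site, GGG, 5 free bases and CC for NF-kappaB, TGACG for the half-site of CRE, the cyclic AMP response element, and TGTGGT for Runx. In the window of Ifng there was 1 NFAT core, 172 bases before the start, 1 GAS match, 249 bases before it, and 1 CRE half-site on the opposite strand, 197 bases before it. The other 5 motifs had no match there, which says only that these letters are not in this window. Among all 32851 promoters in the table, 55.6% held the NFAT core, 7.02% a GAS match and 17.8% a CRE half-site. The Lif window held an AP-1 match, TGACTCA, 228 bases before the start, and 6.75% of all promoters held such a match. The Il3 window held the NFAT core on the opposite strand 234 bases before the start. Oas1g held 2 ISRE matches that overlap each other and also overlap NFAT cores, 19 and 13 bases before the start for the NFAT letters; an ISRE match occurred in 2.98% of promoters. The remaining shares were 12.3% for the T-box half-site, 45.8% for NF-kappaB and 14% for Runx. Matches are a description of letters and no evidence of binding.

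Anti-CD3 raised Ifng strongly, both with and without IFN-4a. On the 3 arrays of anti-CD3 with IFN-4a, in replicate order, Ifng stood at 3.05, 2.95 and 3.30. On the anti-CD3 arrays it stood at 1.80, 1.92 and 2.04. On the PBS with IFN-4a arrays it stood at -1.94, -1.80 and -1.80, and on the PBS arrays at -1.89, -2.03 and -2.12. All 6 stimulated arrays were therefore above all 6 resting arrays, and the lowest anti-CD3 array was 3.59 above the highest array of PBS with IFN-4a. The group means were 3.10 ± 0.18 for anti-CD3 with IFN-4a, 1.92 ± 0.12 for anti-CD3, -1.85 ± 0.08 for PBS with IFN-4a and -2.01 ± 0.11 for PBS (SD, n = 3 each).

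**Figure D1:**
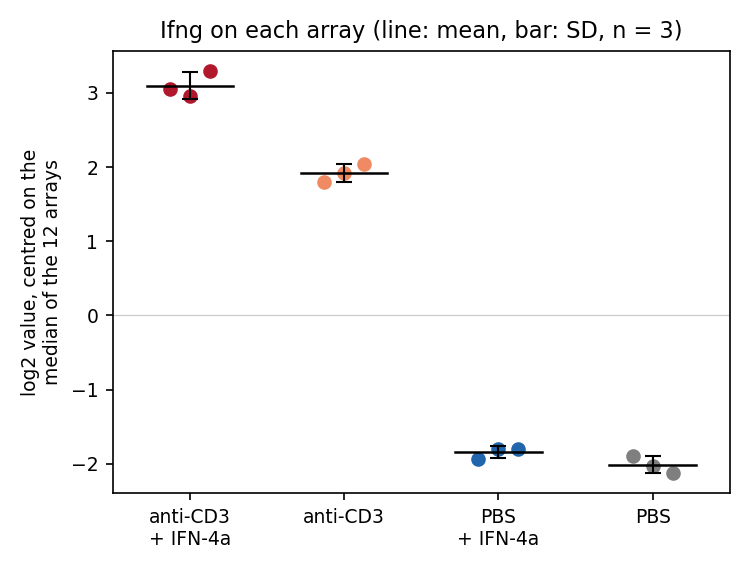
Centred log2 values of Ifng on each of the 12 arrays (points), with the mean (line) and SD (bar) of each group of 3. The group of anti-CD3 with IFN-4a is at 2.95 to 3.30 and anti-CD3 alone at 1.80 to 2.04, while both resting groups lie between -2.12 and -1.80 and overlap.

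With IFN-4a present, Ifng was 30.8-fold higher in anti-CD3 than in PBS cells (log2 4.94, SE 0.09), given with no test. Without IFN-4a it was 15.2-fold higher in anti-CD3 than in PBS cells (log2 3.93, SE 0.09, limma adjusted p = 2.34e-12). Across all genes 12.5% were called higher with anti-CD3 where IFN-4a was present (27.1% in either direction) and 13.6% where it was not (31.5% in either direction). Ranked by size, Ifng was number 3 of the 22180 genes in the comparison with IFN-4a, behind the chemokine genes Ccl3 at 6.25 and Xcl1 at 5.19, and number 12 in the comparison without it. Both comparisons rest on different arrays, but they are tied. The value with IFN-4a is that without it plus the difference of the IFN-4a changes in both states. Ifng was chosen on that difference, so its larger value and higher rank with IFN-4a are no separate result.

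The IFN-4a values, which led to the choice of Ifng, were unequal in both states. In stimulated cells every array of anti-CD3 with IFN-4a was above every array of anti-CD3 alone, by at least 0.92, and the change was 2.27-fold (log2 1.18, SE 0.09). In resting cells the groups overlapped: 8 of 9 pairs had the PBS with IFN-4a array higher, and the change was 1.12-fold (log2 0.17, SE 0.09) against a pooled within-group SD of 0.13. The difference of both changes, called the interaction, was 1.01 (SE 0.13), or 2.02-fold. Put as sums, both agents together gave 5.11 over PBS (34.6-fold), where the separate changes added up to 4.10 (17.1-fold). By rank, Ifng was number 93 of 22180 in its IFN-4a change in stimulated cells, 2439 in resting cells and 7 in the interaction.

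The small resting change turned direction under quantile normalization but not under median scaling. With arrays centred on their medians it was 0.16. After quantile normalization it was -0.50, so its direction turned, while the change in stimulated cells was 0.71 and the interaction 1.21. The 6 genes with a larger interaction than Ifng were Ifitm3 at 1.33, Hspa1b at 1.25, Rps12-ps24 at 1.23, Snora44 at 1.19, Lif at 1.19 and Lipg at 1.04. Ifitm3, an antiviral membrane protein gene, already changed by 1.54 with IFN-4a in resting cells, and the pseudogene Rps12-ps24 and the small RNA Snora44 changed by -0.59 and -1.07 there, so none of these 3 shared the flat resting values of Ifng.

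The decimal steps of centred values, a check chosen after the data were seen, place a row's uncentred level relative to 8 on the same log scale, with a tolerance of 0.2 of a step. Ifng was at 8 or above on all 6 stimulated arrays and below 8 on at least 1 of the resting arrays. The same held for Tbx21, Eomes and Tnf, whereas the cytokine gene Il2 was below 8 on at least 1 array of each state. Cd8a and Cd8b1, markers of CD8+ T cells, and Cd3e, a marker of T cells, were at 8 or above on all 12 arrays. The CD4 T cell marker Cd4, the NK markers Ncr1 and Klrb1c, the B cell marker Cd79a and the myeloid markers Csf1r and Lyz2 were below 8 on at least 1 array of each state. Of all genes 26.4% were at 8 or above on all stimulated and 26.1% on all resting arrays. Of 22180 genes, 15655 were below 8 on at least 1 stimulated array and 15738 on at least 1 resting array. Such levels were thus common, and the markers named here are only some of those listed. The purity of the cells was not tested. Whether a low probe set was above background could not be assessed on these values.

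Genes were then sought with the interferon profile of Ifng: an IFN-4a change under 1.5-fold in either direction in resting cells, at least 1.5-fold higher in stimulated cells, and at least 1.5-fold larger in stimulated than in resting cells. Of 22180 genes 9, or 0.0406%, met it, with no predicted gene or small RNA among them: Hspa1b, Lif, Lipg, Ifng, Gzmc, Il3, Oas1g, Zbtb32 and Nt5c3. These limits fix their IFN-4a values, which are therefore given with no test. Of these, 3 also had an increase of at least 2-fold with anti-CD3 alone, namely Ifng, Il3 and Lipg. By the check of levels above, Hspa1b, Lif, Lipg, Gzmc, Il3, Oas1g and Zbtb32 were below 8 on at least 1 array of each state. Nt5c3 was at 8 or above on all 6 resting arrays and below 8 on at least 1 stimulated array. Whether the flat resting values of the low genes lay above background could not be assessed.

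Il3, which encodes a growth factor of blood cell precursors, had the highest correlation with Ifng among these genes. It stood at 1.53, 1.64 and 1.86 with anti-CD3 and IFN-4a, at 0.55, 0.61 and 0.78 with anti-CD3, at -0.55, -0.65 and -0.68 with PBS and IFN-4a, and at -0.78, -0.73 and -0.79 with PBS. Its IFN-4a change was 1.03 in stimulated and 0.14 in resting cells (SE 0.08 each), and anti-CD3 changed it by 2.30 with and 1.41 without IFN-4a. The PBS with IFN-4a arrays were all above the PBS arrays, unlike those of Ifng.

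Lipg, the gene of endothelial lipase, which cleaves phospholipids of lipoproteins, stood at 1.78, 1.94 and 1.80 with anti-CD3 and IFN-4a and at 0.56, 0.90 and 0.87 with anti-CD3. Its resting values were -0.60, -0.61 and -0.56 with PBS and IFN-4a, and -0.67, -0.59 and -0.57 with PBS. The stimulated groups were apart and the resting groups overlapped, as for Ifng, at IFN-4a changes of 1.06 and 0.02 (SE 0.08 each). Lipg was chosen for such changes, so this likeness is no separate result. Lif, the gene of leukemia inhibitory factor, a cytokine of the interleukin-6 family, stood at 1.60, 1.71 and 1.42 with anti-CD3 and IFN-4a and at 0.38, 0.27 and 0.30 with anti-CD3. In resting cells Lif was at -0.36, -0.42 and -0.55 with PBS and IFN-4a and at -0.67, -0.59 and -0.27 with PBS. Anti-CD3 alone changed Lif by 0.83, less than the 2-fold asked of the full profile, and by 2.02 with IFN-4a.

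Gzmc, the gene of granzyme C, a protease of cytotoxic granules, ranged over 0.59 to 1.27 with anti-CD3 and IFN-4a, against 0.08 to 0.13 with anti-CD3. Zbtb32 encodes a zinc finger repressor of activated lymphocytes and ranged over 0.60 to 0.92 with anti-CD3 and IFN-4a, against 0.02 to 0.22 with anti-CD3. Hspa1b, a heat-inducible HSP70 chaperone gene, was the least even of the 9, with 1.18, 1.45 and 0.69 on the arrays of anti-CD3 with IFN-4a, against -0.19 to -0.04 with anti-CD3 and -0.25 to 0.13 over both resting groups. For these 3 genes anti-CD3 alone changed values by 0.21, 0.35 and -0.10. Hspa1b and its near-identical copy Hspa1a may share probes, and the same applies to Oas1g and its Oas1 paralogs.

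Oas1g, which belongs to the oligoadenylate synthetase family of antiviral enzymes, and Nt5c3, a nucleotidase gene, met the limits in another way. Their IFN-4a changes in resting cells were 0.43 and 0.54, close to the limit, and anti-CD3 alone changed them by -0.15 and -0.18. Oas1g ranged over 0.72 to 0.93 with anti-CD3 and IFN-4a, -0.50 to -0.23 with anti-CD3, 0.11 to 0.44 with PBS and IFN-4a and -0.25 to -0.11 with PBS. Across the 12 arrays the Pearson correlation with Ifng was 0.39 for Oas1g and 0.32 for Nt5c3, the lowest of the class, against 0.98 for Il3 and for Lipg. Nearest outside the limits were Csrp1 (interaction 0.55), Mpeg1 (resting change 0.62) and Rps12-ps24 (resting change -0.59), and nearest inside were Nt5c3, Zbtb32 and Oas1g, with interactions of 0.63, 0.66 and 0.70.

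**Figure D2:**
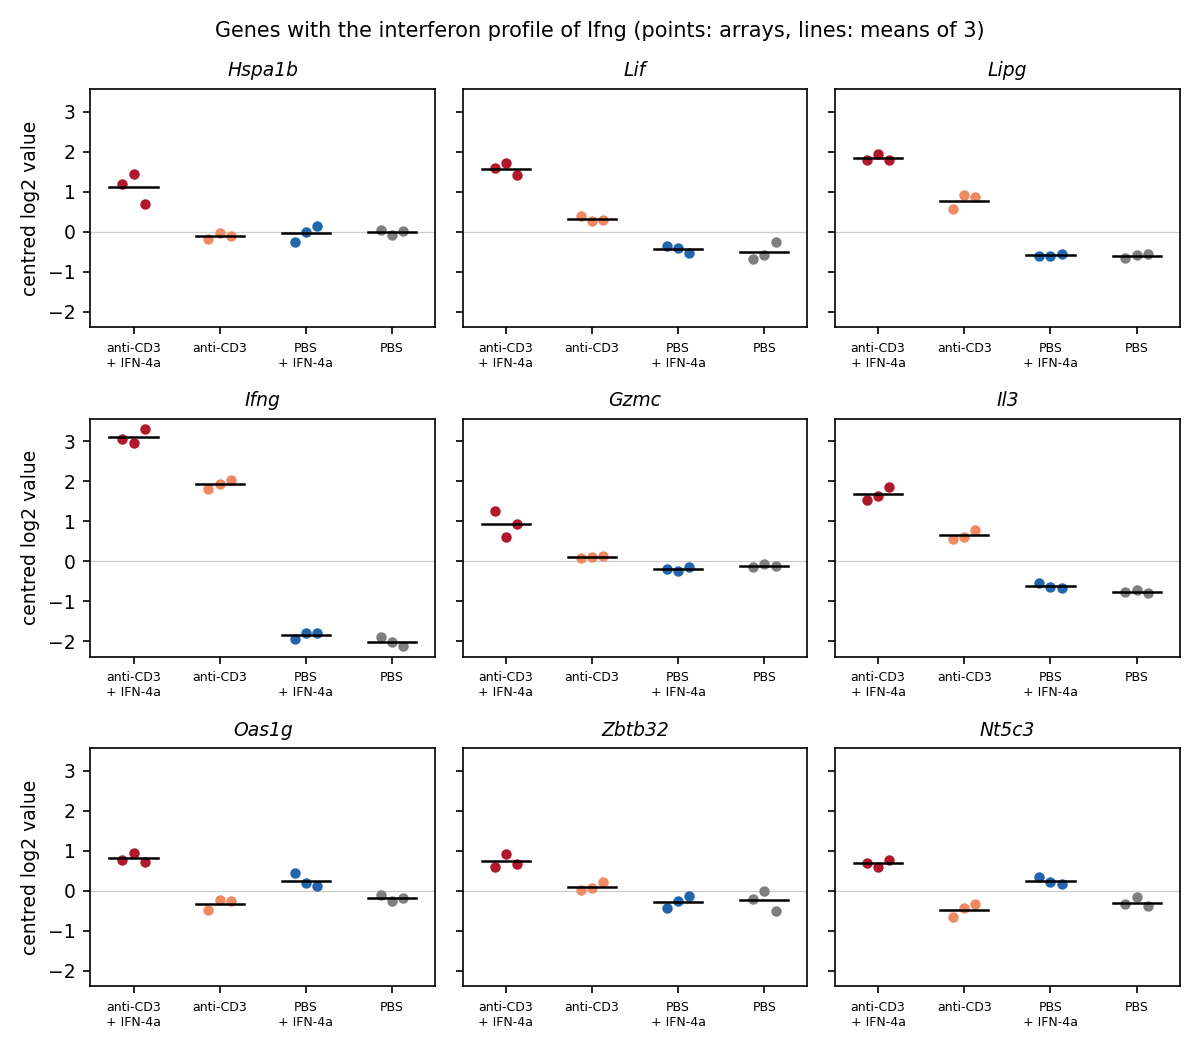
Centred log2 values of the 9 genes with the interferon profile of Ifng, 1 panel each on a shared axis, with arrays as points and group means of 3 as lines. In every panel the arrays of anti-CD3 with IFN-4a lie above those of anti-CD3, and Ifng has the widest span of the 9. The genes were chosen for a higher group mean on these same arrays, so the order of single arrays is no separate result. The share of all genes with such an order was not counted.

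Membership of the class was not equally firm. Ifng stayed in it in all settings tried, and the class held 9 to 12 genes with any 1 array left out. Nt5c3 left it without the second PBS array or the first anti-CD3 array, and Zbtb32 left it without the second PBS array, without the second array of anti-CD3 with IFN-4a, or after quantile normalization. With 2-fold limits in stimulated cells and for the difference, 4 genes remained, namely Hspa1b, Lif, Lipg and Ifng. First-listed promoters were at hand for 8 of the 9 genes; the NFAT core and the NF-kappaB letters each occurred in 5 of them, the CRE half-site and Runx letters in 3 each, the AP-1, ISRE and GAS letters in 1 each, and the T-box half-site in 0.

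**Figure D3:**
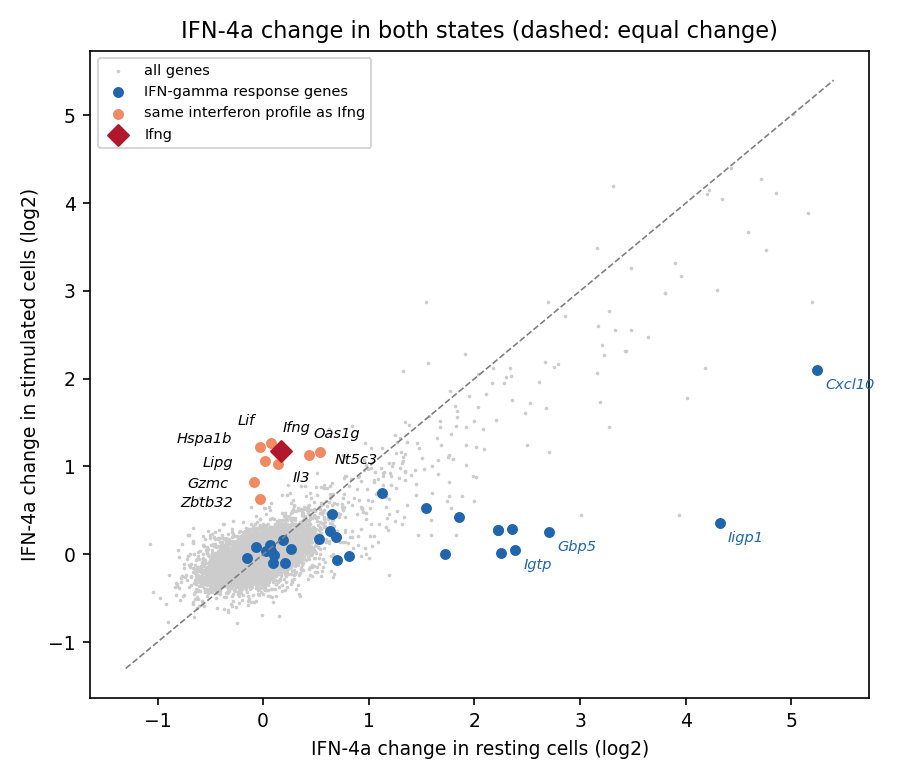
IFN-4a change (log2) in resting cells (horizontal axis) and in stimulated cells (vertical axis) for all 22180 genes, with equal change on the dashed line. Ifng (1.18 in stimulated, 0.17 in resting cells) and the 8 genes with its profile lie above the line near the left, and IFN-gamma response genes such as Iigp1 (0.36 in stimulated, 4.32 in resting cells) lie below it.

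By likeness over all 12 arrays, other genes came first. The 10 with the highest Pearson correlation with Ifng, leaving out predicted genes, small RNAs and receptor segments, were Eomes (0.992), Slc41a1 (0.992), Nfkbid (0.992), Cdkn1a (0.990), Tbx21 (0.990), Nkg7 (0.989), St6galnac4 (0.988), Prag1 (0.988), Ahsa1 (0.988) and Tfrc (0.988). These 12 arrays share 4 groups, and 501 genes (2.26%) had a correlation above 0.95, so a high correlation was common to many genes. All 10 had interactions under 1.5-fold, from -0.05 for St6galnac4 to 0.48 for Tfrc, the transferrin receptor gene. For Tfrc the IFN-4a changes were 0.25 in stimulated and -0.23 in resting cells. The 10 genes were chosen for likeness to Ifng on the same arrays, and Ifng for its interaction. Their interactions are therefore given with no test. With Spearman's rho 1 of these 10 stayed among the top 10, and with Pearson's r over the 6 stimulated arrays 0 did; there the list was led by Ms4a6b, Zc3hav1 and Mapk9.

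Eomes and Tbx21 encode the T-box factors named above. Eomes ranged over 1.19 to 1.25 with anti-CD3 and IFN-4a, 0.63 to 0.90 with anti-CD3, -0.85 to -0.71 with PBS and IFN-4a and -0.95 to -0.63 with PBS. Tbx21 ranged over 1.30 to 1.38 with anti-CD3 and IFN-4a, 0.76 to 0.93 with anti-CD3, -0.95 to -0.76 with PBS and IFN-4a and -1.54 to -1.11 with PBS. For both genes the stimulated groups were apart, while in resting cells the Eomes groups overlapped and the Tbx21 groups did not. Both were chosen here for likeness to Ifng on the same arrays, so this order of arrays is no separate result. The share of all genes with groups apart was not counted. Nfkbid encodes a nuclear regulator of NF-kappaB, Cdkn1a a cell cycle inhibitor and Nkg7 a protein of cytotoxic granules.

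**Figure D4:**
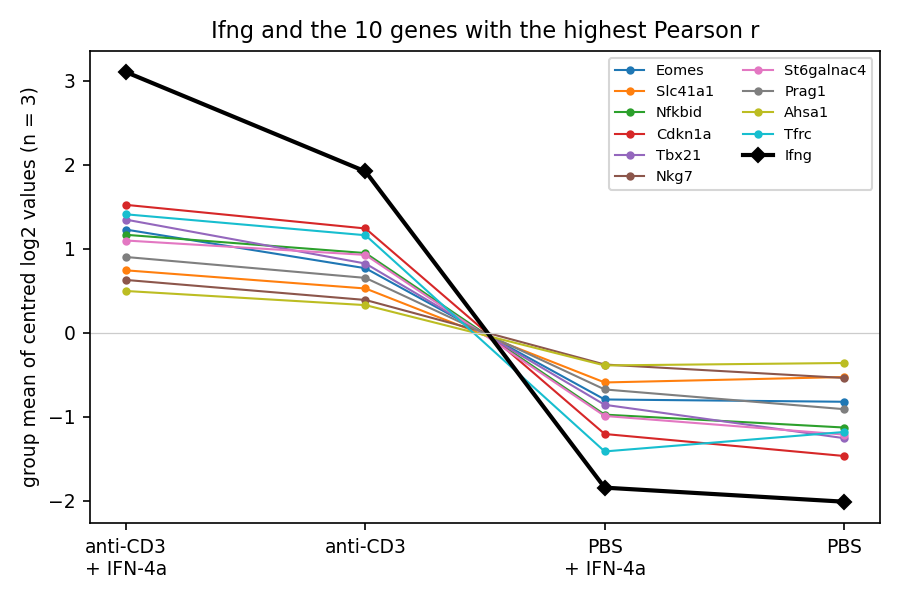
Group means of 3 arrays (centred log2 values) for Ifng (black diamonds) and the 10 genes most correlated with it over 12 arrays. All lines are high in both stimulated groups and low in both resting groups, and Ifng spans the widest range, from 3.10 with anti-CD3 and IFN-4a to -2.01 with PBS.

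Among 30 measured transcription factors that bind or induce Ifng, anti-CD3 raised 16 and lowered 6 with IFN-4a and raised 17 and lowered 6 without it. The share of all genes called higher was 12.5% with and 13.6% without IFN-4a, and that called lower was 14.6% and 17.9%. The median change of the factors was 0.28 with and 0.45 without IFN-4a, against -0.04 for all genes in both. Nr4a1, an early factor of receptor signalling, changed by 3.52 with and 3.44 without IFN-4a, Irf4 by 2.98 and 3.44, and Egr2 by 2.97 and 3.24. Tbx21 rose by 2.20 (SE 0.10, limma adjusted p = 1.23e-09) with and 2.08 (limma adjusted p = 2.23e-09) without IFN-4a, and Eomes by 2.02 and 1.59. The AP-1 genes Fos (1.48 and 1.46), Jun (0.33 and 1.37) and Fosl2 (0.58 and 0.90) rose as well, as did the NF-kappaB genes Rel (1.17 and 1.71) and Rela (0.22 and 0.33) and the NFAT gene Nfatc1 (0.65 and 0.68). Irf1, Irf8, Bhlhe40, Stat5a and Runx1 also rose in both, by 0.37 to 1.15, and Cbfb rose by 0.19 without IFN-4a. Nfatc3, Creb1, Stat5b, Ets1, Stat4 and Id2 fell in both, by 0.23 to 0.67. The calls of Jun and Id2 with IFN-4a ended without the third array of anti-CD3 with IFN-4a, or without the third array (Jun) or the first (Id2) of PBS with IFN-4a (limma adjusted p 0.0570 to 0.0940), and that of Cbfb without the first or the third PBS or the third anti-CD3 array (up to 0.0799).

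With IFN-4a, 3 of 30 factors rose in stimulated cells, where 1.99% of all genes were called higher and 1.43% lower (3.43% in all). The risers were Tbx21 at 0.52 (limma adjusted p = 0.0100), Eomes at 0.46 (limma adjusted p = 0.00769) and Id2 at 0.46. In resting cells 6 of 30 rose and 1 fell, where 4.19% of all genes were called higher and 8.22% lower (12.4% in all). The risers there were Jun at 1.0, Irf1 at 0.70, Rel at 0.54, Fosl2 at 0.44, Tbx21 at 0.40 and Id2 at 0.38, and Runx1 fell by 0.23. Eomes was at 0.03 in resting cells, not called. The calls of Tbx21 and Runx1 in resting cells also ended after quantile normalization (limma adjusted p 0.102 and 0.0977). Leaving out the third PBS array or the second or the third array of PBS with IFN-4a ended that of Tbx21 (up to 0.0720), and leaving out any of 9 arrays, all but the first PBS, the third PBS with IFN-4a and the third anti-CD3 array, ended that of Runx1 (up to 0.183). The interaction was called for 3 factors, each lower: Jun at -1.04, Irf1 at -0.77 and Rel at -0.53, against 0.28% of all genes called higher and 0.631% lower (0.911% in all). For Rel the interaction missed the threshold after quantile normalization (limma adjusted p = 0.0986).

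Of 24 other cytokine and chemokine genes of T cells, anti-CD3 raised 15 and lowered 2 with IFN-4a and raised 16 and lowered 2 without it. The medians were 0.65 and 0.77 against -0.04 for all genes. Across all genes 12.5% were called higher and 14.6% lower with IFN-4a, and 13.6% and 17.9% without it. Ccl3, Xcl1, Ccl4 and Tnfsf14 rose most, by 6.25, 5.19, 4.36 and 4.32 with IFN-4a and by 6.91, 5.59, 4.76 and 4.33 without it. Tnf rose by 4.22 and 4.31, and Il2, the T cell growth factor gene, by 2.62 and 2.28. IFN-4a in stimulated cells raised 4 of the 24, where 1.99% of all genes were called higher and 1.43% lower. Of the 4, Il3 and Lif were chosen above on that value, and the others were Cxcl10 at 2.09 and Osm at 0.40. The call of Osm ended without the third anti-CD3 array or the first or the third array of anti-CD3 with IFN-4a (limma adjusted p up to 0.0771). Tnf was at -0.00, Ccl3 at -0.00, Xcl1 at -0.04 and Il2 at 0.13 in that comparison, none of them called, against 1.18 for Ifng. In resting cells IFN-4a raised Cxcl10 by 5.24, Ccl4 by 0.50 and Csf1 by 0.45. The Ccl4 call ended without the first or the third PBS array or the first or second array of PBS with IFN-4a (up to 0.137), and after quantile normalization its value was -0.30. That of Csf1 ended without the second PBS array or the second array of PBS with IFN-4a (up to 0.0815).

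Receptors through which T cells are made to transcribe Ifng moved in both directions. Of 18 measured, anti-CD3 raised 7 and lowered 7 with IFN-4a, and raised 7 and lowered 6 without it. Across all genes 12.5% were called higher and 14.6% lower with IFN-4a, and 13.6% and 17.9% without it. Tnfrsf9, a costimulatory receptor gene, rose by 4.19 with and 4.32 without IFN-4a, Il2ra, the alpha chain of the interleukin-2 receptor, by 2.95 and 3.93, Il12rb1 by 2.10 and 2.38, and Il15ra by 1.96 and 2.05. Il18r1, a chain of the interleukin-18 receptor, fell by 0.79 and 0.73, and the type I interferon receptor gene Ifnar1 fell by 0.62 and 0.64. IFN-4a in stimulated cells raised Il18r1 by 0.55 and its partner Il18rap by 0.53 and lowered Il27ra by 0.33, and no other member was called. The shares of all genes called there were 1.99% higher and 1.43% lower, and in resting cells 4.19% and 8.22%. In resting cells IFN-4a raised 5 and lowered 3; Il12rb2, a chain of the interleukin-12 receptor, rose by 1.19, Il2ra by 0.98, Il18rap by 0.93, Il18r1 by 0.61 and Il15ra by 0.42. After quantile normalization the call of Il2ra in resting cells ended (limma adjusted p = 0.310).

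Genes known to restrain Ifng transcription or its mRNA mostly rose with anti-CD3. Of 21 measured, 12 rose and 5 fell with IFN-4a, and the same numbers did without it. Across all genes 12.5% were called higher and 14.6% lower with IFN-4a, and 13.6% and 17.9% without it. The orphan receptor genes Nr4a2 and Nr4a3 rose by 4.11 and 3.70 with and by 4.20 and 3.54 without IFN-4a, and Pdcd1, the PD-1 receptor gene, by 2.67 and 2.49. Zfp36 and Zfp36l1, genes of proteins that bind AU-rich mRNA, rose by 0.70 and 0.82 with and by 0.74 and 1.15 without IFN-4a, and their relative Zfp36l2 fell by 0.81 and 0.78. IFN-4a in stimulated cells raised Cish by 0.44 and Lag3 by 0.43. Each of these 2 calls ended when most single arrays were left out: that of Cish for every array but the second of PBS with IFN-4a and the first of anti-CD3 with IFN-4a, and that of Lag3 for every array but the second and the third PBS and the first anti-CD3 array (limma adjusted p up to 0.124 and 0.202). In resting cells IFN-4a raised Lag3 by 0.66, the repressor gene Bcl6 by 0.66 and Socs1 by 0.53 and lowered Tox by 0.39 and Foxo1 by 0.24.

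Of the receptor for interferon gamma, anti-CD3 lowered both chains. Ifngr1 fell by 0.66 with and 0.60 without IFN-4a, and Ifngr2 by 0.74 and 0.97. Jak1 fell by 0.46 and 0.60, Jak2 rose by 0.54 and 0.40, and Ptpn6, a phosphatase gene, rose by 1.13 and 1.15. In all, 4 of 11 measured genes of the receptor and its signalling rose and 5 fell with IFN-4a, and 6 rose and 4 fell without it. Across all genes 12.5% were called higher and 14.6% lower with IFN-4a, and 13.6% and 17.9% without it. Ptpn2 rose by 0.29 and 0.50, Pias1 fell by 0.40 and 0.42, and Socs3 fell by 0.49 with IFN-4a. Socs1, a feedback inhibitor gene, rose by 0.28 and 0.73; its call with IFN-4a ended without the first array of PBS with IFN-4a or the second or the third of anti-CD3 with IFN-4a (limma adjusted p 0.0604 to 0.0701). Ptpn11 rose by 0.19 without IFN-4a, which did not hold without the first PBS or the second or the third anti-CD3 array (up to 0.105). IFN-4a lowered Ifngr2 by 0.41 in resting cells and raised Usp18, a brake on the type I interferon receptor, by 3.47 in stimulated and 4.76 in resting cells. In stimulated cells it also raised Jak2 by 0.28, a call that ended without the third array of anti-CD3 or of anti-CD3 with IFN-4a (up to 0.0588). Usp18 rose by 1.14 with anti-CD3 alone, but after quantile normalization that change was no longer called (limma adjusted p = 0.996).

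Among genes that interferon gamma is known to induce, 15 of 28 had a called interaction of the opposite sign to that of Ifng. IFN-4a raised 9 of 28 measured response genes in stimulated cells and 18 of 28 in resting cells (Gbp2, Tgtp1, Tgtp2 and Cd74 were not analysed here). The shares of all genes called higher were 1.99% and 4.19%, and for the interaction 0.28% were called higher and 0.631% lower. The interaction was called lower for these 15 and higher for 0 by limma (0 higher and 18 lower at an unadjusted p under 0.05), at a median of -0.46 against 0.01 for all genes, where that of Ifng was 1.01. The other 13 were not called, and some had the larger value in stimulated cells, such as Ciita at 0.08 in stimulated and -0.07 in resting cells. Anti-CD3 raised 8 and lowered 1 with IFN-4a and raised 20 without it. Across all genes 12.5% were called higher and 14.6% lower with IFN-4a, and 13.6% and 17.9% without it. Of the 28, 17 genes were called higher with either agent alone, in comparisons that share the PBS arrays. The share of all genes called higher with either agent alone was not counted. Iigp1, an immunity-related GTPase gene, was 0.36 higher with IFN-4a in stimulated and 4.32 higher in resting cells, and 0.50 higher with anti-CD3 where IFN-4a was present and 4.46 where it was not. Cd274, which encodes the PD-1 ligand PD-L1, was at 0.02 with IFN-4a in stimulated cells, not called, and 2.25 higher in resting cells, with 3.27 for anti-CD3 alone. Gbp5, a guanylate-binding protein gene, gave 0.25 (not called) in stimulated and 2.70 in resting cells, and 3.04 for anti-CD3 alone. The MHC class II genes H2-Ab1 and H2-Eb1, the transactivator gene Ciita, Nos2 and Ido1 were called in none of these 5 comparisons. Many of these genes are also known targets of type I interferon, and the part of interferon gamma in their values was not tested.

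**Figure D5:**
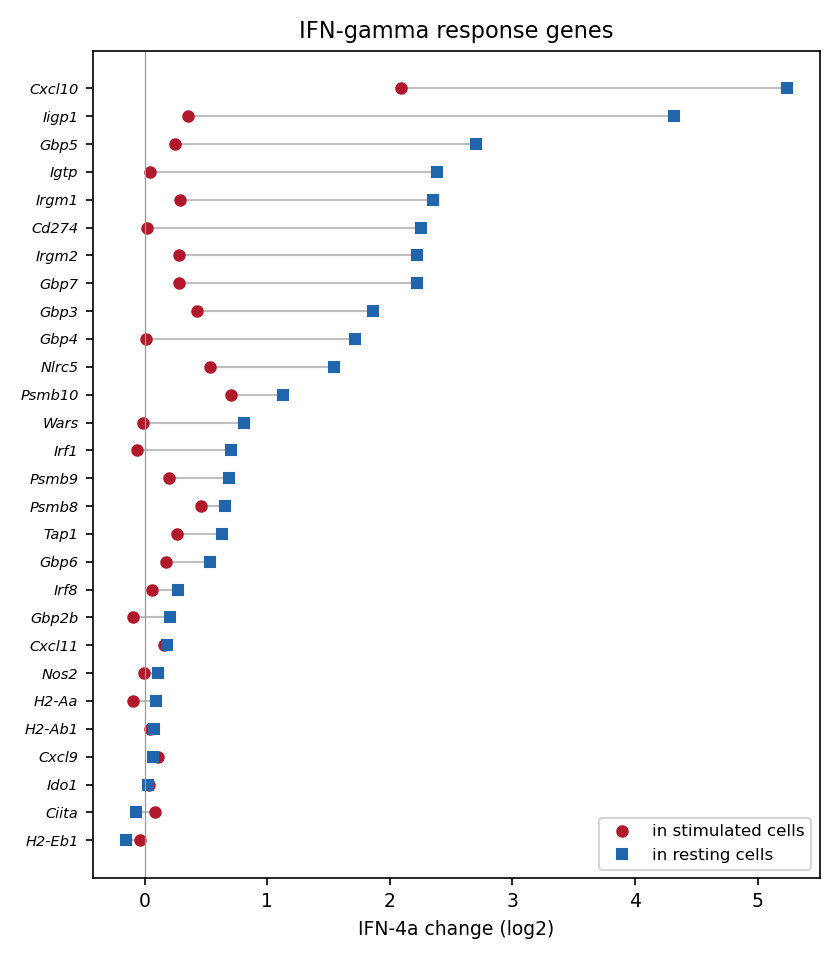
IFN-4a change (log2) of the 28 measured IFN-gamma response genes in stimulated cells (circles) and in resting cells (squares), joined by a line for each gene. For the 15 genes with a called interaction the square lies to the right, as for Cxcl10 (2.09 in stimulated, 5.24 in resting cells).

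Measured neighbours of Ifng on chromosome 10 had anti-CD3 changes between -0.66 and 0.52. Of the 5 annotated genes on each side, 1 was measured, the pseudogene Gm9049 at -0.09 with and -0.12 without IFN-4a for anti-CD3, not called; the noncoding gene Ifngas1, 56.1 kb away, was not analysed here. The nearest measured coding genes, looked up after the data were seen, included Iltifb (146 kb away) and Il22 (231 kb), cytokine genes with anti-CD3 changes of 0.01 each with IFN-4a and -0.03 and -0.01 without it, not called. Mdm1 and Dyrk2 fell with anti-CD3, by 0.39 and 0.66 with and 0.40 and 0.55 without IFN-4a, and Cand1 rose by 0.52 and 0.39. With IFN-4a the neighbour with the largest change was Dyrk2, at 0.13 in stimulated and 0.24 in resting cells (limma adjusted p = 0.516 and 0.0679).

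NK cells also transcribe Ifng, and their markers moved in part with the groups. The mean of 8 measured of 11 NK markers ranged over 0.117 to 0.288 on the arrays of anti-CD3 with IFN-4a, -0.148 to -0.00727 with anti-CD3, 0.0722 to 0.245 with PBS and IFN-4a and -0.275 to -0.142 with PBS. Of the 8, IFN-4a raised Gzma by 1.95 and Nkg7 by 0.24 in stimulated cells and Gzma by 2.28 in resting cells. Across all genes 1.99% were called higher with IFN-4a in stimulated and 4.19% in resting cells. Both Gzma and Nkg7 are also genes of cytotoxic T cells. Without these 2, a selection made after the data were seen, the ranges were -0.0788 to 0.0746, -0.0679 to 0.0490, 0.0391 to 0.125 and -0.0837 to 0.0889 in the same order, and the stimulated groups overlapped. Gzma and Nkg7 were the only NK markers called with IFN-4a, so this overlap follows in part from their removal. Anti-CD3 raised Nkg7 by 1.01 with and 0.93 without IFN-4a and lowered the NK receptor gene Klre1 by 0.28 and 0.25, and the other 6 were not called. The NK genes Ncr1 and Klrb1c were called in none of the 5 comparisons, with values from -0.14 to 0.19. Whether some marker is at or near 0 cannot be read from centred values, and the part of NK cells in the Ifng values was not tested. None of 6 measured markers of CD4 T cells and NKT cells was called with IFN-4a in either state, with Cd4 at 0.04 in stimulated and 0.07 in resting cells. Across all genes 3.43% were called in stimulated and 12.4% in resting cells. The lack of calls among so few markers is near those shares and is no result about these cells. Anti-CD3 raised Cd40lg by 0.74 with and 1.04 without IFN-4a and lowered Ikzf2 by 0.53 and 0.45. The other 4, Cd4 among them, were not called with anti-CD3. Of 7 measured CD8 T cell markers, anti-CD3 raised 1 and lowered 4 both with and without IFN-4a. Across all genes 12.5% were called higher and 14.6% lower with IFN-4a, and 13.6% and 17.9% without it. Cd5 rose by 1.48 with and 1.18 without IFN-4a, Thy1 fell by 0.61 and 1.19, Cd3d by 0.41 and 0.64, Cd8b1 by 0.32 and 0.34 and Cd3g by 0.33 and 0.26. Cd8a was at 0.06 and 0.08 and Cd3e at -0.04 and 0.01, not called.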

How the data were processed

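RNA of 12 samples, 3 for each of 4 treatments, was measured on single-channel arrays; per the labels' protocols, biotin-labelled material was made from total RNA with a WT Plus kit. The deposited log2 values were centred by the authors on each row's median over the arrays (largest absolute row median 5e-07); base, summarization, scaling between arrays and software are not stated in what was used here. Centring removes levels and leaves differences between arrays as they were. Values ran from -4.55 to 3.31.

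Of 33793 rows, 23521 had 1 gene symbol in the platform annotation, 1814 several and 8458 none; the first covered 22180 genes. Where a gene had more than 1 row (1082 genes), that of highest mean was kept, a rule that does not rank centred rows by level. RefSeq's GRCm38.p6 table held the Entrez identifiers of 21994 genes. Groups were taken from the titles. limma 3.58.1 in R 4.3.3 was fitted with 1 mean per group over all 12 arrays (8 residual and 5.09 prior degrees of freedom), for 5 comparisons with two-sided moderated tests and Benjamini-Hochberg adjustment; the steps were tested on simulated data. Pearson correlations are descriptions over 12 arrays that share 4 groups.

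Named genes were Ifng, the 10 most correlated genes, the class with its interferon profile, 5 annotated neighbours on each side, the 4 largest changes per list, and called members of the factor and receptor-signalling lists; further list members are named to complete a group. Ifng, the lists and these rules were chosen with earlier results of these data known. Alternatives were quantile and median scaling, row means, fits of only the groups compared, array weights, a robust prior, a replicate block, genes spanning at least 2-fold, other limits and leaving out each array.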

Additional observations from a re-analysis of the deposited data

Results flagged for a closer look

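Among the list members named by the rule of the 4 largest changes per list, or as called members of the factor and receptor-signalling lists, and leaving out Il3 and Lif, 10 had IFN-4a changes that differed between stimulated and resting cells by the test of the difference itself (interaction, limma adjusted over 22180 genes). All 10 had the smaller value in stimulated cells, once Il3 and Lif, which went the other way, were left out. Across all genes 0.28% were called higher and 0.631% lower for the interaction. The rule names members in part for the size of this difference, so the count and the shared direction are no separate result. Il3 and Lif, left out because they were chosen for a larger value in stimulated cells, had interactions of 0.89 and 1.19, and further members outside the rule were called too, such as Cd274 at -2.24. Among response genes, Iigp1 differed by -3.96 (0.36 in stimulated, 4.32 in resting cells, limma adjusted p = 2.94e-10), Cxcl10 by -3.14 (2.09 and 5.24, limma adjusted p = 1.97e-08), Gbp5 by -2.45 (0.25 and 2.70, limma adjusted p = 2.34e-07) and Igtp by -2.34 (0.04 and 2.39, limma adjusted p = 1.04e-07). Usp18 differed by -1.29 (3.47 and 4.76, limma adjusted p = 0.000224), which ended after quantile normalization (limma adjusted p = 0.164).

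Among regulators, Jun differed by -1.04 (limma adjusted p = 0.00122), Irf1 by -0.77 (limma adjusted p = 9.39e-05), Bcl6 by -0.92 (limma adjusted p = 0.00132) and Rel by -0.53 (limma adjusted p = 0.00711). Il2ra differed by -0.97 (limma adjusted p = 0.0226), a call that ended with any of 9 single arrays left out, all but the first PBS, the third PBS with IFN-4a and the first array of anti-CD3 with IFN-4a (limma adjusted p 0.0529 to 0.0717), and after quantile normalization (limma adjusted p = 0.428). Groups of 3 arrays are too small for a check of single arrays far from the rest.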

How the results depend on the processing

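Ifng kept its direction in every alternative for both anti-CD3 comparisons. Quantile normalization reversed its IFN-4a change in resting cells to -0.50 and gave 0.71 in stimulated cells and an interaction of 1.21; it also reversed the resting changes of Ccl3 (-0.39) and Ccl4 (-0.30). The cause was not tested. With each array left out, Ifng ranged over 4.85 to 5.02 for anti-CD3 with IFN-4a, 3.87 to 3.99 for anti-CD3 alone, 1.08 to 1.25 and 0.11 to 0.23 for IFN-4a in stimulated and resting cells, and 0.91 to 1.09 for the interaction.

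Counts of called genes were 6017 for anti-CD3 with IFN-4a, 6992 for anti-CD3 alone, 760 and 2753 for IFN-4a in stimulated and resting cells, and 202 for the interaction. Among the smaller set of genes spanning 2-fold they were 1823, 1863, 603 and 1204, with 302 for the interaction. Array weights gave 1351 for IFN-4a in stimulated cells (625 higher, 726 lower, against 442 and 318), and quantile normalization gave 125 for the interaction. Quantile normalization split the IFN-4a calls in stimulated cells as 469 higher and 494 lower. With each array left out the counts ranged over 5507 to 6097, 6123 to 7066, 484 to 748, 1721 to 2910 and 137 to 198. The 1721 came without the second array of PBS with IFN-4a, the 484 without the second anti-CD3 array and again without the third of anti-CD3 with IFN-4a, and 503 with the third anti-CD3 array left out. The class with Ifng's profile held 9 genes, 9 to 12 with 1 array left out, 15 with array weights and 4 with 2-fold limits. Of 148 called and 18 uncalled results of named genes, 19 lost their call or turned direction in at least 1 of 23 settings.

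The labels do not pair samples by replicate number. Same-numbered arrays had correlations of -0.0754 to 0.265 over 18 pairs, and 9 of 12 arrays correlated best with their own number, a hint from the data. With the replicate block, Ifng stayed at 4.94, 3.93, 1.18, 0.17 and 1.01, and the counts were 6126, 7025, 866, 2848 and 207. The block ended 1 call of a named gene, that of Cish for IFN-4a in stimulated cells, and added 2. Signal over background limits what low probe sets can show, and could not be assessed.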
